A study of Mus musculus with 6 samples.

Results

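Imprinted genes are those that a cell reads mainly from the copy inherited from the mother or mainly from the copy inherited from the father. A list of 38 such genes of the mouse was followed in fibroblasts that lack Lpar6, a receptor for the lipid signal lysophosphatidic acid. The members were all array probes annotated with 1 of these 38 gene symbols; 33 of the 38 had a probe, of 19057 genes named on the array. The samples were 3 Lpar6-/- and 3 Lpar6+/+ samples of mouse embryonic fibroblasts, primary cells grown from dissociated embryos, all of a mixed 129SV and C57BL/6 strain background. The submitters' title calls the series a knock-down, and the genotype labels, which name Lpar6-/- cells, were followed here. Total RNA of each sample was hybridised to an Illumina bead array, and all 6 arrays share 1 slide. The labels name no separate embryos, clones or ages, so the p-values cover no more than the variation among these 6 arrays, and this may be technical.

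Imprinted genes lie in clusters, in which a control region carries DNA methylation laid down in the egg or in the sperm. Within a cluster, genes read from the mother's copy and genes read from the father's copy often stand side by side, commonly with a long non-coding RNA among them. Many act on growth of the embryo and placenta, and several are high in embryonic mesenchyme and in the brain. The arrays measure the sum of both alleles, so the parent of origin given for each gene below is textbook knowledge of the mouse and was not measured.

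The arrays detected 19006 to 19249 probes in the Lpar6-/- samples and 19646 to 20137 in the Lpar6+/+ samples, at a detection p below 0.05. The Lpar6 probe (ILMN_2792601) had intensities of 76.7, 77.9 and 76.0 in the Lpar6-/- samples, against 1373, 1223 and 1278 in the Lpar6+/+ samples, and was not detected on any Lpar6-/- array. Of 12 fibroblast markers, 10 had a kept probe, each detected on all 6 arrays, and 8 of them rose, beside 20.6% of all genes tested. The summed normalized intensity of the 10 markers was 60200 to 61300 in the Lpar6-/- samples and 36700 to 38000 in the Lpar6+/+ samples.

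Of the 33 imprinted genes with a probe, 26 were detected well enough to be tested, which asked for a detection p below 0.05 on at least 3 of the 6 arrays. Of these 26 genes, 13 fell in the Lpar6-/- samples and 0 rose (limma, threshold 0.05 on p adjusted by Benjamini-Hochberg across 19802 kept probes). Among all 11040 genes tested, 19.1% fell, 20.6% rose and 39.7% thus passed in either direction. A gene is given by its brightest kept probe, and a change is the Lpar6-/- mean minus the Lpar6+/+ mean of background-corrected, quantile-normalized log2 intensities, ± SE, with 3 arrays in each group. At an unadjusted p below 0.05, 2 members were higher, the transporter genes Slc22a18 and Slc38a4, against 25.6% of all genes. The median change of the 26 genes was -0.33, against 0.03 for all genes, and 23 of the 26 changes were below 0. Under this background correction with an offset of 16, a fall of at least 2-fold was seen in 7 of the 26, against 4.40% of all genes tested. That count was 0 with plain log2 intensities (1.32% of all genes) and with the authors' values (1.99%), and 1, Nnat, with an offset of 50 in neqc (2.74%).

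**Figure D1:**
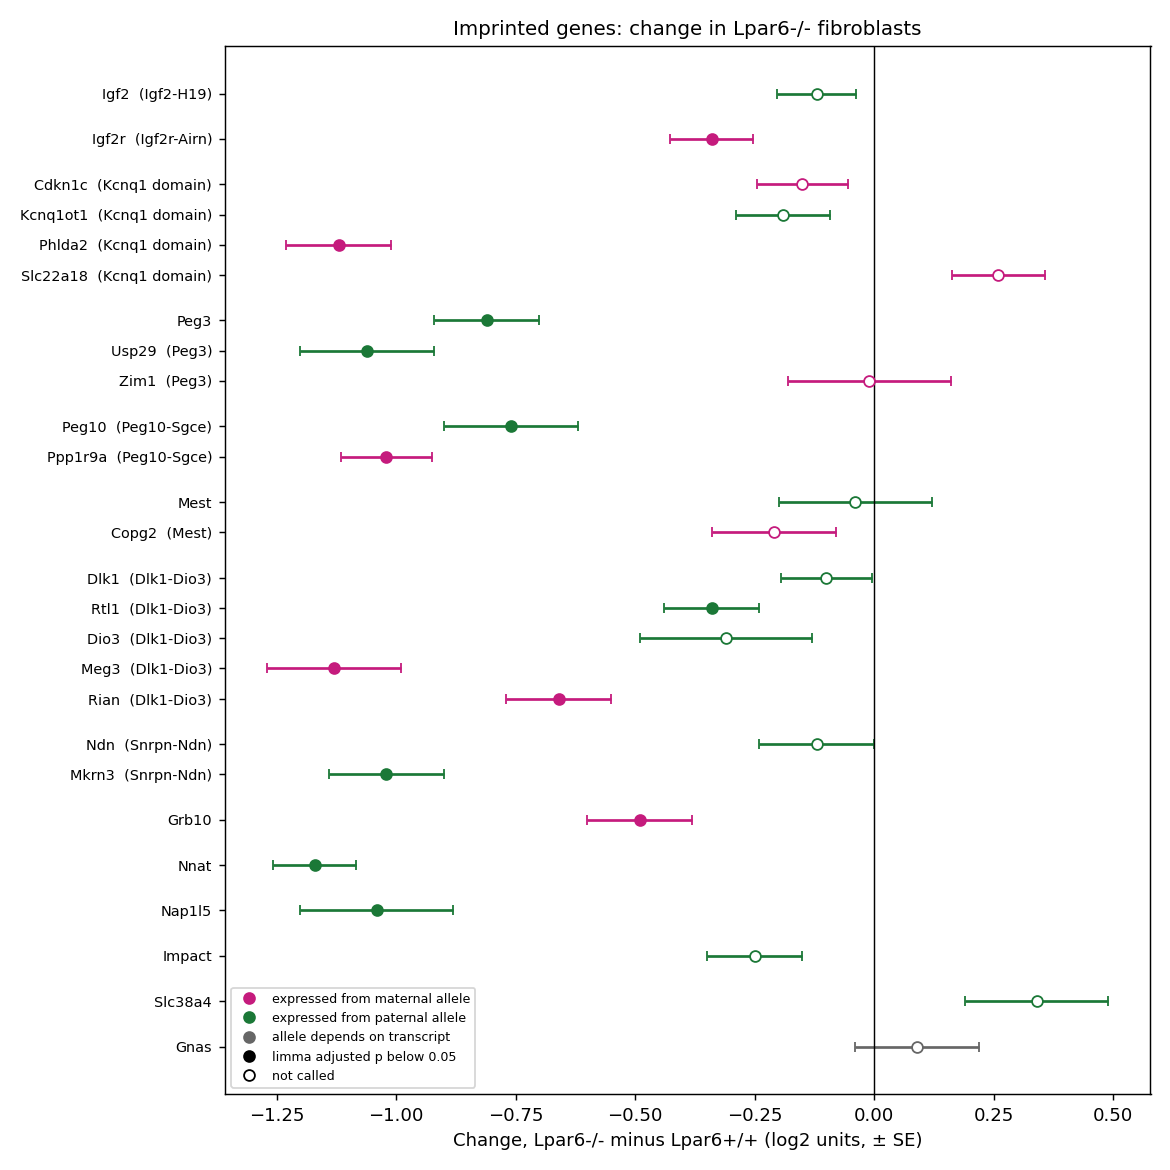
Change of each of the 26 tested imprinted genes, in log2 units ± SE (3 arrays in each group), grouped by cluster and coloured by the parental allele known to be expressed; filled points have a limma adjusted p below 0.05. All 13 filled points lie below 0, between -1.17 for Nnat and -0.34 for Igf2r and Rtl1.

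Counted by probe, 23 of the 44 kept probes of these genes fell and 0 rose, against 18.6% and 19.3% of all kept probes. In 15 of the 26 genes the 3 Lpar6-/- values lay below all 3 Lpar6+/+ values, against 25.3% of all genes. In 1 gene they lay above all of them, against 27.6% of all genes. The detection rule could let a gene in through 1 genotype alone, which favours the direction of that genotype: Meg3 and Peg10, each detected on all 3 Lpar6+/+ arrays and on 1 Lpar6-/- array, would have entered through Lpar6+/+ alone. The same holds for dimmer probes of Peg3, Grb10, Nnat and Meg3 among the probes that fell. The count by probe was not repeated without such probes. Of the 26 genes, 23 were detected on all 6 arrays. Of these 23 genes, 11 fell, against 18.1% of the 9657 genes detected on all 6 arrays. The members were listed with earlier results of these arrays known, so their counts are a description and were not tested as a list. The call of Rtl1 was lost without Lpar6+/+ array B or C or Lpar6-/- array E or F, with limma adjusted p of 0.0755, 0.077, 0.0643 and 0.0659.

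The size of the falls named next depended on the background correction and on the offset. With the same correction and an offset of 50 instead of 16, the changes of these genes ranged from -1.01 for Nnat to -0.42 for Peg10. The plain log2 setting differs from the main one in both respects. With plain log2 intensities and an offset of 50, the changes were -0.76 for Nnat, -0.64 for Ppp1r9a, -0.54 for Mkrn3, -0.40 for Phlda2, -0.38 for Usp29, -0.35 for Nap1l5, -0.34 for Meg3 and -0.21 for Peg10, and each of these genes was still called. When arrays were scaled to a common median instead, 16 of the 26 members fell and 0 rose, while of all genes 2710 fell and 1393 rose. Under the main scaling 2106 of all genes fell and 2273 rose.

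Genes read from the mother's copy and genes read from the father's copy both held members that fell. Among all genes tested 19.1% fell and 20.6% rose, with a median change of 0.03. At an unadjusted limma p below 0.05, 25.6% of all genes were higher. Of the 10 maternally expressed genes tested, 6 fell, 0 rose and 4 did not pass, with a median change of -0.42. At an unadjusted p below 0.05, 1 of the 10 was higher. The falls were those of Meg3, Phlda2, Ppp1r9a, Rian, Grb10 and Igf2r. Of the 15 paternally expressed genes tested, 7 fell, 0 rose and 8 did not pass, with a median change of -0.31 and 1 gene higher at an unadjusted p below 0.05. These falls were those of Nnat, Usp29, Nap1l5, Mkrn3, Peg3, Peg10 and Rtl1. The range of changes was -1.13 to 0.26 for maternally and -1.17 to 0.34 for paternally expressed genes. The difference between the 2 sets was not tested. The last of the 26, Gnas, has transcripts of either parental origin and is described on its own below.

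**Figure D2:**
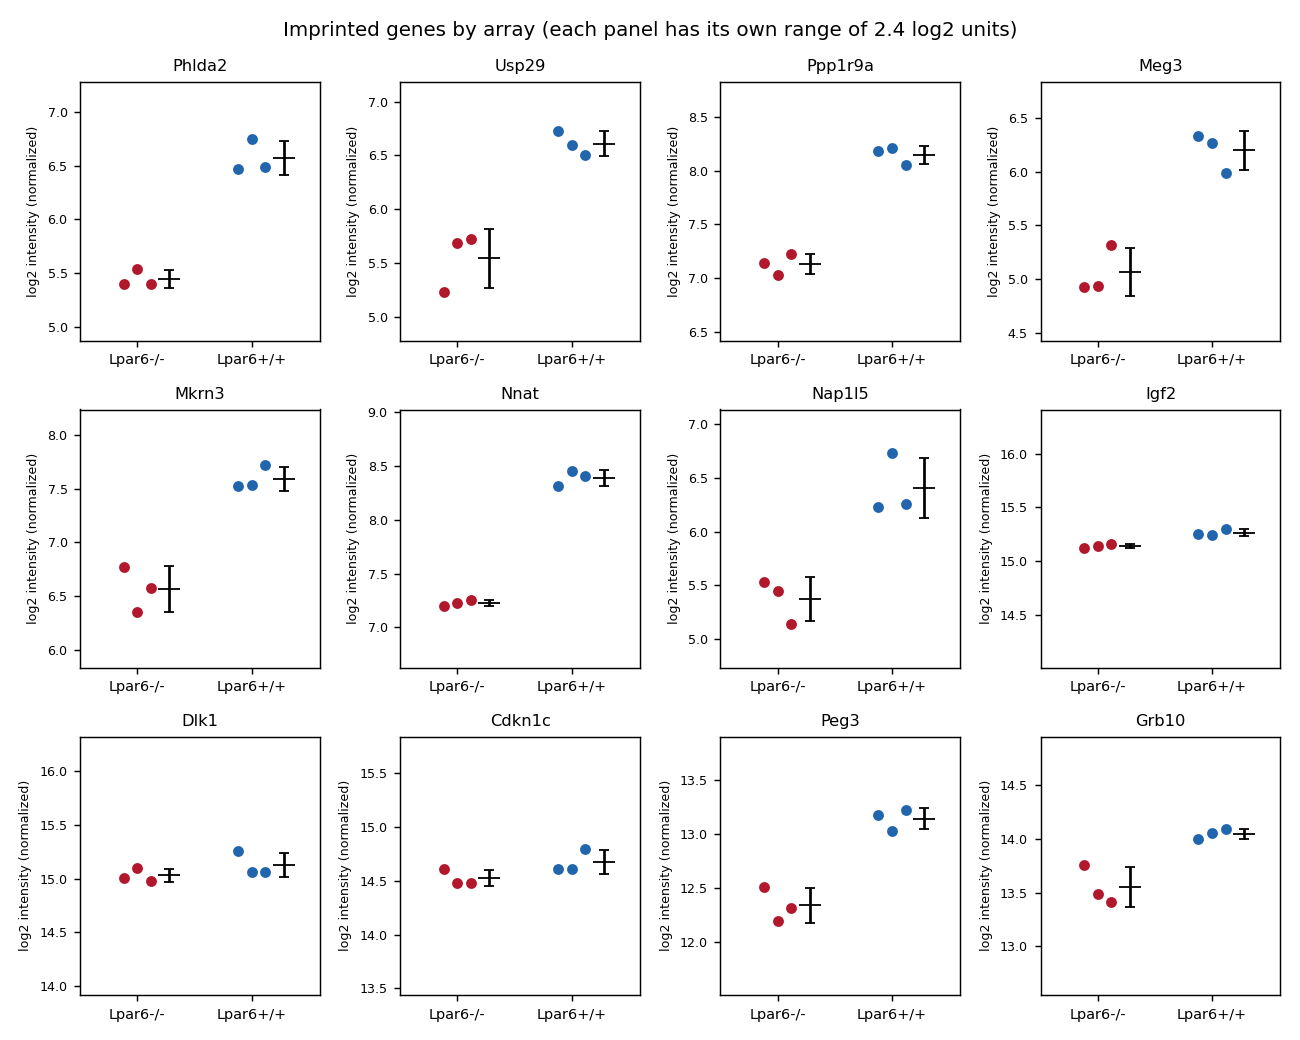
Normalized log2 intensity on each array for 12 imprinted genes, with the Lpar6-/- samples (arrays D to F) left of the Lpar6+/+ samples (arrays A to C); bars are the mean ± SD of 3 arrays, and each panel spans the same number of log2 units around its own centre. The genotypes do not overlap except for Dlk1 and Cdkn1c, and the gap is narrow for Igf2.

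The largest fall was that of Nnat, a paternally expressed gene for the small membrane protein neuronatin, known from developing brain and fat. Its brightest probe (ILMN_2755578) had normalized log2 values of 7.20, 7.23 and 7.25 in the Lpar6-/- samples, against 8.31, 8.45 and 8.41 in the Lpar6+/+ samples. The deposited intensities were 201.8, 208.7 and 206.0 in Lpar6-/- and 439.0, 433.2 and 413.2 in Lpar6+/+. The groups were far apart relative to their spread, with a change of -1.17 ± 0.087, a 2.24-fold lower level (limma adjusted p = 9.06e-06). A second probe gave -1.87 ± 0.15 and was detected on only 1 Lpar6-/- array, so its size is uncertain. The remaining kept probe (ILMN_1241164) was not detected on any Lpar6-/- array and was at least 1.65-fold lower. Nnat lies within an intron of Blcap, which is imprinted in the brain and outside the list of members. Blcap had normalized log2 values of 9.95, 9.83 and 9.93 in Lpar6-/- and 10.63, 10.67 and 10.82 in Lpar6+/+, so that it fell as well (-0.80 ± 0.094, limma adjusted p = 0.00017).

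In the Peg3 cluster of chromosome 7 the paternally expressed genes fell, and Zim1, the maternally expressed one, did not pass. Peg3 encodes a large zinc finger protein that acts on growth and maternal behaviour, and Usp29 a protein of the ubiquitin-specific protease family. The start sites of Peg3 and Usp29 face away from each other with 163 bases between them. This stretch is shown because the 2 genes share it and both fell; its 5 CpG sites, the places where DNA methylation can sit, are in capitals. It is taken from RefSeq's promoter table for GRCm38.p6, chr7:6730420-6730582, plus strand, running from the Peg3 side to the Usp29 side.
Peg3-Usp29 interval: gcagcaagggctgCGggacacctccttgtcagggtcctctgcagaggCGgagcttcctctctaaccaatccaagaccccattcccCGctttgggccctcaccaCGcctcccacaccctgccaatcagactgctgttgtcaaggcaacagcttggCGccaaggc

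The brightest Peg3 probe (ILMN_1245246) had normalized log2 values of 12.51, 12.19 and 12.31 in Lpar6-/- and 13.18, 13.03 and 13.22 in Lpar6+/+, a change of -0.81 ± 0.11 (limma adjusted p = 0.000382). Usp29 (ILMN_1229634) had 5.23, 5.69 and 5.72 in Lpar6-/- and 6.73, 6.60 and 6.50 in Lpar6+/+, a change of -1.06 ± 0.14 (limma adjusted p = 0.000354). In Lpar6-/- the deposited Usp29 intensities were 104, 115.9 and 113.5, near background, so the size is uncertain. In both genes every Lpar6-/- value lay below every Lpar6+/+ value. The other kept Peg3 probes fell too, by 0.80 and 0.51 on the log2 scale; the dimmer of these was detected on only 1 Lpar6-/- array. Zim1, a zinc finger gene, was at the edge of detection, with log2 values of 4.83, 5.13 and 4.71 in Lpar6-/- and 5.20, 4.55 and 4.94 in Lpar6+/+. Its groups overlapped (change -0.01 ± 0.17, limma adjusted p = 0.97), and at this signal a change of Zim1 was not detectable.

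In the Peg10-Sgce cluster of chromosome 6 both tested genes fell, although they are known as imprinted genes of opposite parental origin. Which copy these fibroblasts read was not measured. Ppp1r9a, which encodes the actin-binding protein neurabin of neurons and is maternally expressed in placenta, had normalized log2 values of 7.14, 7.03 and 7.22 in Lpar6-/-, against 8.18, 8.21 and 8.05 in Lpar6+/+. The groups did not overlap (-1.02 ± 0.095, 2.03-fold lower, limma adjusted p = 3.84e-05). Its second kept probe, detected on only 1 Lpar6-/- and 2 Lpar6+/+ arrays, gave -0.34 and did not pass. Peg10, a gene derived from a retrotransposon and needed in the placenta, had 4.86, 4.89 and 5.41 in Lpar6-/- and 5.81, 5.76 and 5.86 in Lpar6+/+ (-0.76 ± 0.14, limma adjusted p = 0.00299). Only 1 Lpar6-/- array detected it, which leaves its fold uncertain. Sgce and Asb4 of the same cluster were not detected on any array.

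In the Snrpn-Ndn cluster, the mouse counterpart of the Prader-Willi region, Mkrn3 fell while Ndn did not pass, although both are paternally expressed. Mkrn3, a RING finger protein gene known as a brake on puberty, had normalized log2 values of 6.77, 6.35 and 6.58 in Lpar6-/- and 7.52, 7.53 and 7.72 in Lpar6+/+. The groups did not overlap (-1.02 ± 0.12, 2.03-fold lower, limma adjusted p = 0.000182). Ndn, which encodes necdin, a protein of post-mitotic cells that restrains growth, had 12.50, 12.72 and 12.41 in Lpar6-/- and 12.51, 12.65 and 12.84 in Lpar6+/+. Its groups overlapped (-0.12 ± 0.12, limma adjusted p = 0.45). Peg12 was not detected on any array, and the Magel2 probe was detected on 2 Lpar6-/- arrays and on no Lpar6+/+ array, too few to be tested.

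In the Dlk1-Dio3 cluster of chromosome 12 the non-coding RNAs read from the mother's copy fell, and of the protein genes read from the father's copy Rtl1 fell while Dlk1 and Dio3 did not pass by their brightest probe. Whether the changes differ was tested only for the pair Dlk1 and Meg3, as given below, and not for the other genes of this cluster. Meg3 is a long non-coding RNA with a differentially methylated region at its start, and Rian is the small nucleolar RNA host downstream of it. The 250 bases before the Meg3 start are shown because Meg3 fell and holds there the motif TGCCGC, which the imprint-protecting protein ZFP57 binds when methylated; the capitals mark that motif, which here reads GCGGCA since it lies on the other strand. The sequence is RefSeq's for GRCm38.p6, chr12:109540746-109540995, plus strand.
Meg3: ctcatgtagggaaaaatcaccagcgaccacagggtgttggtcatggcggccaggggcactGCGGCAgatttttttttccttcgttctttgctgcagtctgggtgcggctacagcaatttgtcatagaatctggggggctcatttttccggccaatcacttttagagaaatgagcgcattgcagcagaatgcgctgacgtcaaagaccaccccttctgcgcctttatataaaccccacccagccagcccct

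The brightest Meg3 probe (ILMN_1227149) had normalized log2 values of 4.93, 4.94 and 5.32 in Lpar6-/-, against 6.33, 6.27 and 5.99 in Lpar6+/+. The groups did not overlap (-1.13 ± 0.14, limma adjusted p = 0.000207), and only 1 Lpar6-/- array detected the probe, so the size is uncertain. A second probe was not detected on any Lpar6-/- array and was at least 1.12-fold lower. Rian (ILMN_1236820), detected on all arrays, had 8.20, 8.27 and 8.51 in Lpar6-/- and 9.07, 8.93 and 8.96 in Lpar6+/+, again without overlap (-0.66 ± 0.11, 1.58-fold lower, limma adjusted p = 0.00114).

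Dlk1 encodes a surface protein of immature cells that holds back fat cell formation. Its brightest probe (ILMN_2771738) had log2 values of 15.01, 15.10 and 14.98 in Lpar6-/- and 15.26, 15.06 and 15.06 in Lpar6+/+. These overlapped (-0.10 ± 0.095, limma adjusted p = 0.437), and the probe's intensity was 67.9% to 79.4% of the brightest probe on each array. The other Dlk1 probe (ILMN_1244618) fell by 0.38 ± 0.092 (limma adjusted p = 0.0096), so the probes of this gene disagree, and the mean of both gave -0.24 (limma adjusted p = 0.0353). Its adjusted p was 0.0353 to 0.942 over 18 alternatives. Whether signal near the top of the range was compressed was not tested. Rtl1, a retrotransposon-derived gene of placental vessels, fell by 0.34 ± 0.099 (limma adjusted p = 0.0225), a call that rests on few arrays as given above. Dio3, the enzyme that inactivates thyroid hormone, had 6.02, 5.37 and 6.07 in Lpar6-/- and 6.26, 6.18 and 5.95 in Lpar6+/+. Its groups overlapped (-0.31 ± 0.18, limma adjusted p = 0.211).

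**Figure D3:**
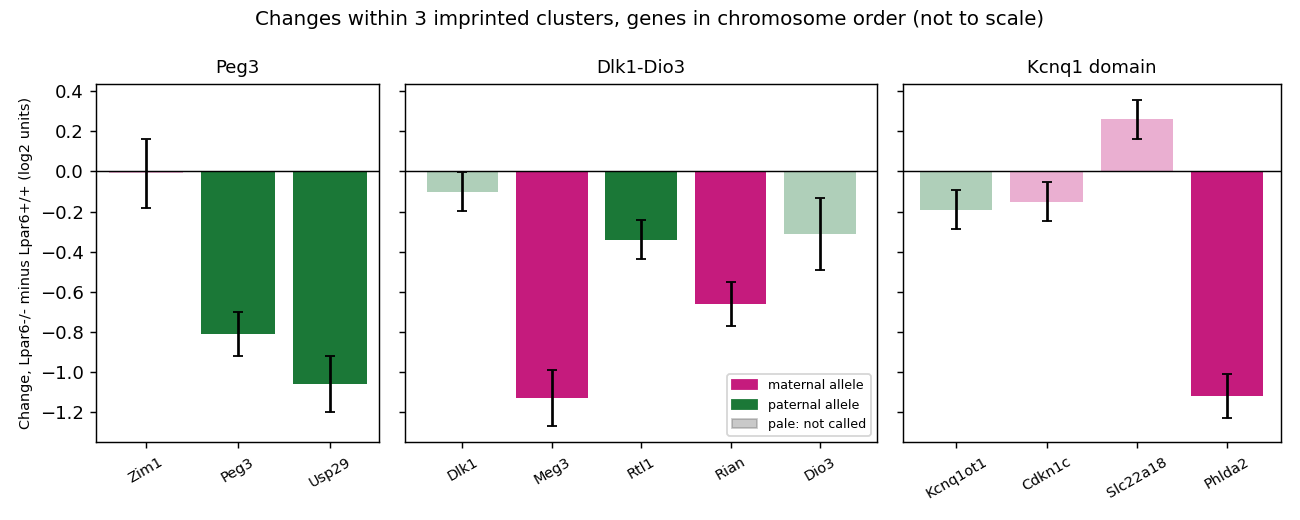
Change of the tested genes in the Peg3 cluster, the Dlk1-Dio3 cluster and the Kcnq1 domain, in log2 units ± SE (3 arrays in each group), with genes in chromosome order and not to scale; colour gives the parental allele and pale bars did not pass. Falls are on paternally expressed genes in the Peg3 cluster and on genes of either parental origin in the Dlk1-Dio3 cluster (Meg3 -1.13, Rian -0.66, Rtl1 -0.34).

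In the Kcnq1 domain at the end of chromosome 7, 1 of the 4 tested genes, Phlda2, fell and the others did not pass. Phlda2 is a maternally expressed brake on placental growth. Its probe (ILMN_2425029) had normalized log2 values of 5.40, 5.54 and 5.40 in Lpar6-/- and 6.47, 6.75 and 6.49 in Lpar6+/+, without overlap (-1.12 ± 0.11, 2.17-fold lower, limma adjusted p = 3.91e-05). In Lpar6-/- its deposited intensities were 107.9, 111.5 and 104.2, near background, so the size is uncertain. Cdkn1c, the maternally expressed cyclin-dependent kinase inhibitor p57, had 14.61, 14.48 and 14.48 in Lpar6-/- and 14.61, 14.61 and 14.80 in Lpar6+/+. These values met at their edge (-0.15 ± 0.096, limma adjusted p = 0.258). Kcnq1ot1, the paternally expressed non-coding RNA that silences the domain, had -0.19 ± 0.098 (limma adjusted p = 0.158). Slc22a18, next to Phlda2 and also maternally expressed, had 6.01, 5.98 and 6.00 in Lpar6-/- and 5.72, 5.62 and 5.88 in Lpar6+/+. It missed the threshold (0.26 ± 0.097, limma adjusted p = 0.0633), and its deposited intensities overlapped, at 127.4, 126.4 and 123.8 in Lpar6-/- and 132.0, 125.8 and 128.4 in Lpar6+/+. It was called higher in 4 of 18 alternatives, with adjusted p of 0.0378 to 0.683. The probes of Ascl2, a transcription factor gene of the trophoblast, were detected on at most 1 array of each genotype.

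Of the growth factor gene Igf2 and the genes Igf2r and Grb10, which oppose it, Igf2 did not pass the test and the other two fell; the difference between them was not tested. Igf2, paternally expressed, encodes insulin-like growth factor 2. Its probe (ILMN_2597769) had deposited intensities of 34850, 37180 and 38290 in Lpar6-/- and 39070, 38980 and 37970 in Lpar6+/+, which is 78.1% to 83.2% of the brightest probe on each array. On the normalized log2 scale these were 15.12, 15.14 and 15.16 in Lpar6-/- and 15.25, 15.24 and 15.30 in Lpar6+/+. The normalized groups did not overlap, but the change of -0.12 ± 0.083 did not pass (limma adjusted p = 0.274) and lay between -0.17 and -0.03 over 18 alternatives.

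Igf2r, maternally expressed, encodes the receptor that carries Igf2 to the lysosome. It had log2 values of 10.78, 10.69 and 10.69 in Lpar6-/- and 11.11, 11.02 and 11.06 in Lpar6+/+, and fell by 0.34 ± 0.086 (limma adjusted p = 0.0116). Its second probe gave -0.23 ± 0.095 and did not pass (limma adjusted p = 0.0803). Grb10, maternally expressed outside neurons, encodes an adaptor that dampens insulin and Igf receptor signals. Its brightest probe (ILMN_2518412) had 13.76, 13.49 and 13.41 in Lpar6-/- and 14.00, 14.05 and 14.09 in Lpar6+/+, without overlap (-0.49 ± 0.11, limma adjusted p = 0.00627). The other kept Grb10 probes fell by 0.74 and 0.70.

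Of the short list of Igf2 partners, 4 of 5 genes were tested. By the brightest probe 1 fell and 0 rose, with a median change of -0.19, beside 19.1% of all genes that fell and 20.6% that rose. The one that fell was Igf1r, the receptor that transmits the Igf2 signal, with 9.41, 9.30 and 9.48 in Lpar6-/- and 9.96, 9.93 and 10.05 in Lpar6+/+ (-0.58 ± 0.092, limma adjusted p = 0.00107). Its other kept probes gave -0.29, which passed, and -0.09, which did not. The other kept probes of Igf2bp1 gave -0.68 and -0.48, which passed, and -0.35, which did not. Those of Igf2bp3 disagreed, with -0.40 and 0.37, which passed, and -0.19 and -0.06, which did not.

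Of the remaining genes, Nap1l5 fell, while Impact, Slc38a4, Gnas, Mest and Copg2 did not pass by their brightest probe. Nap1l5, a paternally expressed gene without introns related to nucleosome assembly proteins, lies inside an intron of Herc3. The 250 bases before its start are shown for the same TGCCGC motif, in capitals (RefSeq, GRCm38.p6, chr6:58907127-58907376, minus strand).
Nap1l5: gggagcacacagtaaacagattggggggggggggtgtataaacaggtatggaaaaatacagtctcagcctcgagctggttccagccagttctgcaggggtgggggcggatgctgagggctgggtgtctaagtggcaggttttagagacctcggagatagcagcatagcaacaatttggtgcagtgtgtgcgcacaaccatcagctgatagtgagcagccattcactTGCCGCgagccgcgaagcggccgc

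Nap1l5 (ILMN_2608073) had normalized log2 values of 5.53, 5.45 and 5.14 in Lpar6-/- and 6.23, 6.73 and 6.26 in Lpar6+/+, without overlap (-1.04 ± 0.16, 2.05-fold lower, limma adjusted p = 0.00076). In Lpar6-/- its deposited intensities were 111.1, 108.9 and 97.91, near background, so the size is uncertain. Its host gene Herc3 had 5.32, 4.90 and 4.92 in Lpar6-/- and 5.31, 5.03 and 5.30 in Lpar6+/+, which overlapped (-0.17 ± 0.14, limma adjusted p = 0.357). The difference between the 2 changes was not tested. Impact, a paternally expressed regulator of translation, had -0.25 ± 0.099 by its brightest probe (limma adjusted p = 0.0792) and fell by 0.46 ± 0.11 by the other (limma adjusted p = 0.0118). The brightest probe was called in 7 of 18 alternatives. Slc38a4, a paternally expressed amino acid transporter gene, had 5.89, 5.84 and 6.39 in Lpar6-/- and 5.84, 5.64 and 5.62 in Lpar6+/+ (0.34 ± 0.15, limma adjusted p = 0.103). The groups of this gene overlapped.

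Gnas, which encodes the stimulatory G protein alpha subunit, gives transcripts of maternal, paternal and biallelic origin, and the files do not say which transcript each probe reads. Of its 10 probes, 6 were kept, and 1 of the 6 fell. That probe (ILMN_1252926) had a mean of 8.24 ± 0.082 in Lpar6-/- and 8.64 ± 0.072 in Lpar6+/+ (SD, n = 3 each; change -0.39 ± 0.092 SE, limma adjusted p = 0.00861). The brightest Gnas probe (ILMN_2632206) had 10.97, 11.23 and 11.17 in Lpar6-/- and 11.03, 11.27 and 10.81 in Lpar6+/+, which overlapped (0.09 ± 0.13, limma adjusted p = 0.625). Mest, a paternally expressed enzyme gene of embryonic mesoderm, did not pass on any of its 3 kept probes, with changes of -0.04, -0.16 and -0.01. Its neighbour Copg2, a coat protein gene, had -0.21 ± 0.13 (limma adjusted p = 0.213).

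Oppositely imprinted genes of a cluster were set against each other in the 4 pairs whose genes were both tested. For each array the log2 value of the maternally expressed gene was taken from that of the paternally expressed gene, and only the change of this difference between genotypes is read. The Dlk1 minus Meg3 difference was 10.08, 10.15 and 9.66 in Lpar6-/- and 8.93, 8.79 and 9.08 in Lpar6+/+, a shift of 1.03 without overlap. Meg3 was detected on all 3 Lpar6+/+ arrays but on only 1 Lpar6-/- array, so the Lpar6-/- differences are set against signal near background and the size of the shift is uncertain. The Peg3 minus Zim1 difference was 7.67, 7.06 and 7.60 in Lpar6-/- and 7.98, 8.48 and 8.27 in Lpar6+/+, a shift of -0.80. Zim1 was near background, detected on 1 Lpar6-/- and 2 Lpar6+/+ arrays, so this shift restates the change of Peg3 (-0.81) and gives no reading of the balance within the cluster. The Mest minus Copg2 difference shifted by 0.17 and the Kcnq1ot1 minus Cdkn1c difference by -0.04, and both overlapped between genotypes. With median scaling the Kcnq1ot1 minus Cdkn1c shift was -0.39 without overlap (exact permutation p = 0.1). Exact permutation tests over the 6 arrays, two-sided, gave p = 0.1, 0.1, 0.7 and 0.7, and 0.2, 0.2, 0.7 and 0.7 after Benjamini-Hochberg adjustment over the 4 pairs. With 3 arrays against 3, 0.1 is the smallest p this test can give. The Dlk1 and Meg3 shift was 0.24 for plain log2 intensities and 0.38 with the authors' values.

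**Figure D4:**
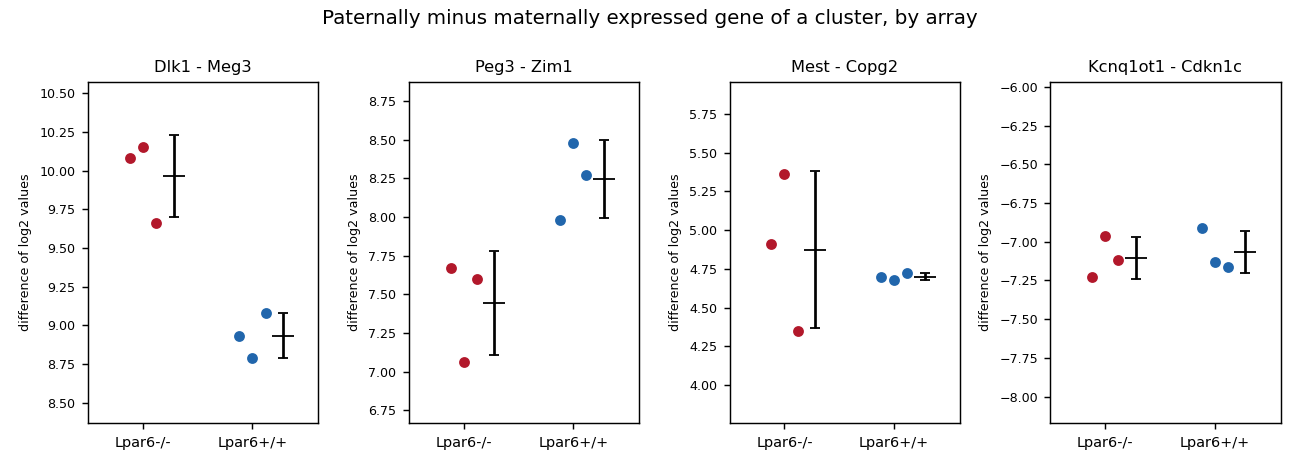
Log2 value of the paternally expressed gene minus that of the maternally expressed gene of the same cluster on each array, with the Lpar6-/- samples left of the Lpar6+/+ samples; bars are the mean ± SD of 3 arrays. Meg3 and Zim1 were each detected on only 1 Lpar6-/- array, so the shifts of 1.03 for Dlk1 minus Meg3 and -0.80 for Peg3 minus Zim1 are taken against signal near background; the genotypes overlap for the other pairs.

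The promoter table held 48 windows for 31 of the 38 genes, each of 300 bases with 250 before and 50 after a start site. The motif TGCCGC, searched on both strands, was in 11 of the 48 windows (22.9%), against 11.6% of all 32851 windows. These belonged to 10 genes, of which 8 were tested and 4 of the 8 fell: Nnat, Nap1l5, Meg3 and Grb10. Of the other 4, Igf2, Mest, Copg2 and Zim1, none passed by the brightest probe. Among all 26 tested members 13 fell (50%), and among all genes tested 19.1% fell. A link between the motif and the falls was not tested. A match is only a run of letters, and windows were not matched for base composition. Overlapping windows of a gene, as for Mest, were counted separately. The window of Peg3 held 13 CpG sites and that of Usp29 17, against a median of 7 over all windows. The windows of Peg3 and Usp29 cover largely the same stretch of DNA, so their counts are not separate.

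Other imprinted genes and the factors that keep imprints were followed in lists that do not overlap the members. Of 28 tested genes among 42 other imprinted ones, 8 fell, 6 rose and 14 did not pass, with a median change of -0.07, beside 19.1% of all genes that fell and 20.6% that rose. Inpp5f, a phosphoinositide phosphatase gene, changed most, with a mean log2 value of 8.13 ± 0.14 in Lpar6-/- and 9.55 ± 0.16 in Lpar6+/+ (SD, n = 3 each; change -1.42 ± 0.12 SE, limma adjusted p = 1.52e-05). Zdbf2, a paternally expressed gene, fell by 0.65 ± 0.091. Qpct, which encodes glutaminyl cyclase, rose by 0.88 ± 0.11, and the paraoxonase genes Pon2 and Pon3 of the Peg10-Sgce cluster rose by 0.71 ± 0.11 and 0.49 ± 0.10. Pon3 was near background, and its deposited intensities overlapped, at 110.5, 117 and 107.4 in Lpar6-/- and 106.4, 112.4 and 100.4 in Lpar6+/+. Changes in that chromosome 6 cluster thus ran in both directions, down for Peg10 and Ppp1r9a and up for Pon2, with Pon3 less certain.

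Of 19 imprint-maintaining factors, 13 were tested, of which 3 rose and 2 fell, with a median change of 0.05; these counts lie near the 20.6% and 19.1% of all genes, and the genes below are named as single values. Dnmt3l, the partner of the methylating enzymes that set imprints in germ cells, had 6.44, 6.43 and 6.10 in Lpar6-/- and 4.90, 4.96 and 4.87 in Lpar6+/+ (1.41 ± 0.11, limma adjusted p = 1.28e-05). Only 2 Lpar6+/+ arrays detected it, so the size is uncertain, and its other kept probe gave 1.39. Uhrf1, which brings Dnmt1 to replicating DNA, rose by 0.62 ± 0.10, and Dnmt3b rose by 0.41 ± 0.11. Tet1, which oxidises methylated cytosine, fell by 0.86 ± 0.10, and the zinc finger gene Zfp445 by 0.37 ± 0.13. Dnmt1, the enzyme that copies methylation (0.05), Trim28, the corepressor that zinc finger proteins recruit (0.01), and Ctcf, the insulator protein of the Igf2-H19 region (0.23), did not pass. Methylation itself was not measured.

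Markers of other cell types moved on the same arrays, on which 19.1% of all genes tested fell and 20.6% rose. Of 8 neuronal markers 7 were tested and all 7 fell, with a median of -3.00 and a summed normalized intensity of 1080 to 1160 in Lpar6-/- and 7210 to 7410 in Lpar6+/+. All 7 tested cartilage markers fell, with a median of -1.71 and sums of 4050 to 4120 in Lpar6-/- and 17300 to 17600 in Lpar6+/+. All 7 tested adipocyte markers rose (sums 10200 to 11900 in Lpar6-/- and 3450 to 4030 in Lpar6+/+), and Adipoq, Cidec and Plin1 were not detected on any Lpar6+/+ array. All 8 skeletal muscle markers rose (sums 16000 to 16900 in Lpar6-/- and 8650 to 8680 in Lpar6+/+), and Ckm was not detected on any Lpar6+/+ array. Each tested neuronal and cartilage marker was detected on at least 1 Lpar6-/- array.

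Placental markers were mostly not kept, with 2 of 6 measured markers kept, Psg23 lower and Plac1 higher, and sums of 149 to 153 in Lpar6-/- and 171 to 191 in Lpar6+/+. Of 6 liver markers 4 were kept and 2 fell (Ttr and Afp), beside 19.1% of all genes tested. The liver sums were 151 to 167 in Lpar6-/- and 281 to 297 in Lpar6+/+. Alb was not kept, and Afp was not detected on any Lpar6-/- array. Several members are known to be high in neurons, among them Nnat, Ppp1r9a and Nap1l5, which fell, and Ndn, which did not pass (-0.12 ± 0.12, limma adjusted p = 0.45). The part of these cell types in the falls of imprinted genes was not tested, and in bulk RNA fewer cells of a type and less RNA per cell cannot be told apart.

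The remaining members gave no test result. Sgce, Asb4, Klf14, Ascl2, Magel2, Peg12 and Plagl1 had probes that were not kept, the last of these being a zinc finger gene that acts on other imprinted genes, with 3 probes detected on at most 1 array. H19, Mirg, Snrpn, Zrsr1 and Airn had no probe under their symbol and were not analysed here.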

How the data were processed

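RNA of mouse embryonic fibroblasts was labelled with biotin and hybridised to Illumina bead arrays, per the labels' protocols. For each probe and array the authors deposited an intensity, not normalized, and a detection p-value, per the file headers. A second deposited table holds log2 values made with limma, per the submitters' processing notes, with a background correction not given in the sources used here. Its group means lay within 0.0039 of those of uncorrected, quantile-normalized log2 intensities, and its columns had a column median of 6.54. Its values were thus not centred by gene.

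Intensities were background-corrected with normexp, using negative controls inferred from the detection p-values, quantile-normalized and log2-transformed with an offset of 16 (limma 3.58.1, R 4.3.3), which shrinks changes of dim probes. Kept probes had a detection p under 0.05 on 3 or more of the 6 arrays (19802 of 45281 probes). Names came from GEO's platform annotation, updated by Entrez ID through RefSeq (GRCm38.p6): 34885 probes had 1 symbol, 18 several and 10378 none. A gene was its kept probe with the highest mean. Probes were tested with lmFit and eBayes without covariates, with p adjusted by Benjamini-Hochberg across kept probes. Where no array of a group detected a probe, its fold is a bound, set against the higher of its own value and the lowest detected value of each array. All 6 arrays share 1 slide, and intensity columns carry letters, not replicate numbers; an effect of letter order or slide position cannot be told apart from genotype. The number of arrays limits the precision.

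The members, lists and naming rule were chosen with earlier results of these data known. The rule gave a value on every array for members called with a change of at least 1 on the log2 scale and for Igf2, Dlk1, Meg3 and Cdkn1c, further arrays' values being added after they were seen, and named up to 6 called genes of each other list; Herc3, Dnmt1, Trim28 and Ctcf were named after their values were seen. On simulated data (19802 probes, 100 of them changed at each size), limma called 100% of changes of 1 and 59% of changes of 0.5 on the log2 scale. Of the called probes 6.47% were false. In the data 3691 kept probes fell and 3819 rose, so the adjusted threshold was stricter in the simulation and these shares do not carry over.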

Additional observations from a re-analysis of the deposited data

How the results depend on the processing

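Over 20 alternatives, 7 to 16 imprinted genes fell, and 0 rose except for Slc22a18 alone, which made 1 with detection p below 0.01 or below 0.05 on all 6 arrays, with the mean of a gene's probes and without array C. The filter at 0.05 on all 6 arrays was chosen after seeing the data. With at least a 2-fold change 7 members fell (0 with plain log2 or the authors' values, 1 with an offset of 50 in neqc, 3 with detection p below 0.01 on all 6 arrays, a count over alternatives added after seeing the data), and of all genes 486 fell and 264 rose; 1430 of all genes rose at an adjusted p threshold of 0.01 and 1393 with median scaling, which moved the median change of all genes to -0.081 from 0.027. Leaving out each array in turn gave 12 to 13 members lower and 0 to 1 higher, 1713 to 1979 of all genes lower and 1844 to 2088 higher. Of the 13 genes that fell, 12 were called wherever they were tested at the 0.05 threshold, the exception being Rtl1.

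The median of maternally expressed genes was -0.33 for plain log2 values, -0.21 without a detection filter, -0.34 with detection p below 0.01 on all 6 arrays and -0.47 with the mean of probes, and -0.48 to -0.38 leaving out each array in turn. That of paternally expressed genes was -0.16, -0.19 and -0.22 under the first 3 of these, -0.49 with median scaling, -0.20 with the authors' values with or without a replicate block, -0.24 with an offset of 50 in neqc, and -0.40 to -0.25 leaving out each array. Filters changed which genes entered; the other causes were not tested.

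Signs of changes near 0 turned. Cdkn1c (0.02) and Dlk1 (0.01) did so with median scaling. Leaving out arrays, Zim1 ranged from -0.18 to 0.14, Mest from -0.22 to 0.09 and Gnas from -0.03 to 0.20. The Kcnq1ot1 minus Cdkn1c shift was 0.03 for plain log2 values, 0.01 with the authors' values with or without the replicate block, -0.14 with cyclic loess, -0.39 with median scaling, where the groups did not overlap (exact permutation p = 0.1), and -0.11 to 0.03 leaving out arrays; the Mest minus Copg2 shift was -0.07 to 0.44. Pairs with Meg3 or Zim1 gave no value where detection was asked on all 6 arrays. The replicate block could be fitted only with the authors' values, where 14 members fell with or without it. Same-numbered samples did not deviate together (correlations -0.048, 0.020 and -0.054). With 3 samples in each group this check cannot settle whether the numbers pair the samples.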
